A study of Mus musculus with 6 samples.

Results

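The genes described here are 7 members of the SOX family of transcription factors, which were chosen by gene symbol from the expression table of FLK1+ mesodermal cells. They are the SOXF genes Sox7, Sox17 and Sox18, the SOXC genes Sox4, Sox11 and Sox12, and the SOXE gene Sox9. These 7 rows are among 14005 genes listed in the table. SOX proteins bind DNA through a high-mobility-group (HMG) box related to that of SRY, and members of a group share most of this domain and often stand in for each other. SOXF factors are known from endothelium, from the haemogenic endothelium that gives rise to blood, and, in the case of Sox17, from definitive endoderm. SOXC factors are widely expressed in embryonic progenitors, including neural and mesenchymal ones, and Sox9 directs cartilage formation.

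RNA was sequenced from FLK1+ cells isolated from embryoid bodies (EBs, aggregates of differentiating embryonic stem (ES) cells) at day 3.5, from WT and Scl-/- ES cells, with 3 libraries in each group. SCL (TAL1) is the transcription factor that starts blood specification in FLK1+ mesoderm, and the comparison asks which genes differ when it is lacking. The FLK1+ gate holds lateral plate mesoderm with blood and endothelial potential together with cells that still carry other mesodermal potentials. The study names the J1 line for WT cells and an established Scl-/- line, while the sample titles begin with j1 in both groups. Genotype and ES cell line cannot be told apart. The strain label was C57Bl/6 X Sv129 for both libraries of replicate 1 and for WT replicate 2, and carried the numbers 130, 131 and 132 in place of 129 for the remaining libraries. The study lists 3 replicates for the RNA-seq but does not tie a WT library to the Scl-/- library of the same number. Same-numbered libraries deviated together from their group means, so each result is given from the model with condition alone and, where the call differs, with the replicate number as a block. Values are CPM, read counts scaled to the size of each library, with a TMM adjustment by the authors for RNA composition. Tests were made with limma on log2(CPM + 0.5), a scale on which changes of weakly expressed genes are understated. A gene was called when its Benjamini-Hochberg adjusted p over all 13991 tested genes was under 0.05 and its log2 fold change, given as Scl-/- against WT, was beyond 0.48 in either direction.

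The libraries held between 38623641 and 47621120 reads on listed genes, as read from the step of the CPM values, and 3 reads corresponded to between 0.0615 and 0.0784 CPM. Tal1, the targeted gene, had 182 to 306 CPM in WT and 5.68 to 9.35 CPM in Scl-/- libraries. Kdr, which encodes the sorting marker FLK1, had 832 to 868 CPM in WT and 724 to 810 CPM in Scl-/- libraries. The median log2 fold change was -0.29 over chromosome 1 and 0.31 over chromosome 11, against -0.016 to 0.031 for 18 other chromosomes and 1.75 for the 4 tested genes of chromosome Y. Sox17 lies on chromosome 1 and Sox9 on chromosome 11, and both are therefore also given below relative to their chromosome and their neighbours.

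By the model with condition alone, 1 of the 7 SOX genes was called, Sox9 as higher in Scl-/- cells, while 4 had an unadjusted p under 0.05. The share of all tested genes under this unadjusted cut-off was not counted, so here and below such counts have no background beside them. Of all tested genes 2.36% were called by this model, 1.57% as lower and 0.793% as higher. With the replicate block 5 of the 7 were called, against 12.6% of all tested genes. These were Sox7, Sox17, Sox18 and Sox12 as lower (6.6% of all tested genes) and Sox9 as higher (6.04%). With chromosome medians removed from each library and the block, 5 were again called, against 10.7% of all tested genes, 5.9% as lower and 4.76% as higher. WT and Scl-/- values did not overlap for 4 members (Sox7, Sox17, Sox12 and Sox9), against 21.6% of all tested genes. In the same-numbered pairs, 4 members were lower in Scl-/- cells in all pairs (26.4% of all tested genes) and 2, Sox4 and Sox9, were higher in all pairs (29.8%). Sox11 was lower in 2 pairs and higher in 1.

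**Figure D1:**
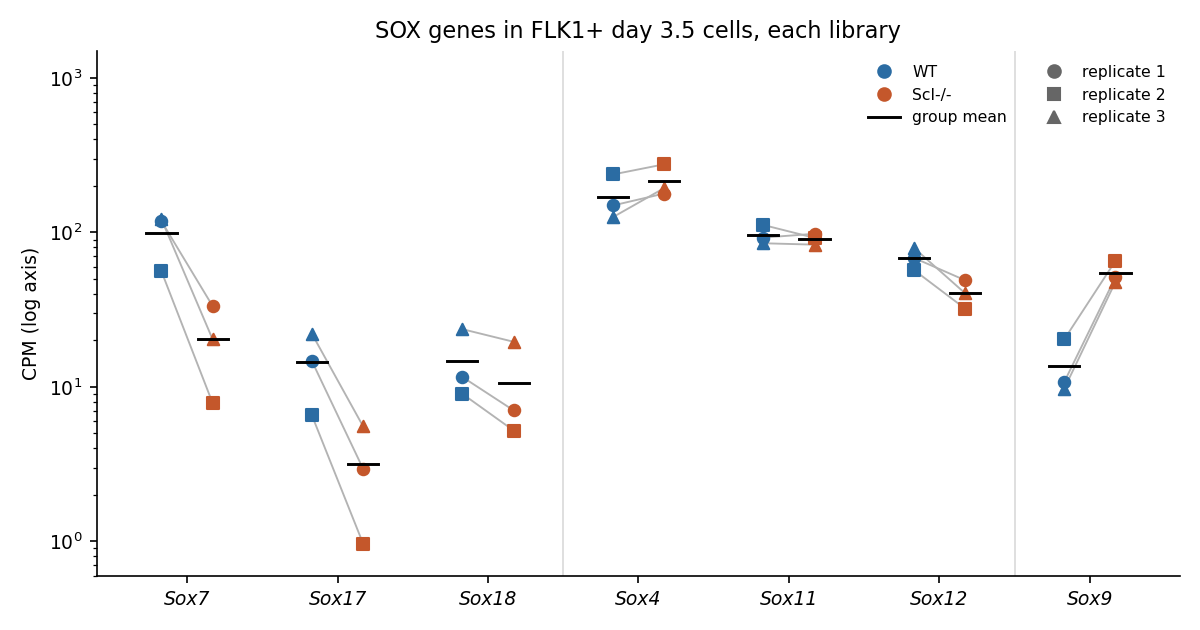
CPM of the 7 SOX genes in each library on a log axis, with WT on the left and Scl-/- on the right of each gene, marker shapes for replicates 1 to 3, grey lines joining same-numbered libraries and black bars for group means (n = 3). Sox7, Sox17 and Sox12 sit lower in Scl-/- libraries without overlap, Sox9 sits higher without overlap, and Sox18, Sox4 and Sox11 overlap between groups.

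Sox7 (Ensembl ENSMUSG00000063060), on chromosome 14 from 64562511 to 64569569 of mm9, encodes a SOXF factor of early blood and endothelial precursors. Its level was 118, 56.0 and 122 CPM in the WT libraries, in replicate order, against 33.4, 7.86 and 20.3 CPM in the Scl-/- libraries. Every Scl-/- library lay below every WT library, and replicate 2 was the lowest of both groups. Group means were 98.6 ± 36.9 CPM for WT and 20.5 ± 12.8 CPM for Scl-/- (SD, n = 3 each). Scl-/- cells had a log2 fold change of -2.37, a 5.18-fold lower level on the log2(CPM + 0.5) scale (SE 0.52, Benjamini-Hochberg adjusted p = 0.0686 by limma and 9.4e-05 in the blocked fit). The log2 differences within pairs were -1.81, -2.76 and -2.55.

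Sox17 (Ensembl ENSMUSG00000025902), on chromosome 1 from 4481009 to 4486494, encodes the SOXF factor of arterial and haemogenic endothelium and of endoderm. In replicate order, WT libraries held 14.7, 6.53 and 22.05 CPM of its RNA and Scl-/- libraries 2.95, 0.967 and 5.56 CPM, where the lowest value rested on 40 reads. The groups did not overlap, although the highest Scl-/- library was close to the lowest WT library. The log2 fold change was -2.10 (SE 0.58, Benjamini-Hochberg adjusted p = 0.124 by limma and 6.8e-05 in the blocked fit), and the pairs differed by -2.14, -2.26 and -1.90. The pair differences spanned a narrower range than the WT libraries themselves.

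Sox18 (Ensembl ENSMUSG00000046470), on chromosome 2 from 181404541 to 181406345, encodes the SOXF factor best known from blood vessel and lymphatic development. Its level was 11.6, 9.02 and 23.7 CPM in the WT libraries, in replicate order, against 7.05, 5.22 and 19.6 CPM in the Scl-/- libraries. The groups overlapped, and replicate 3 was the highest of both. Over the 3 libraries per group it came to a log2 fold change of -0.56 (SE 0.51, Benjamini-Hochberg adjusted p = 0.675 by limma and 0.0160 in the blocked fit). The pair differences were -0.68, -0.73 and -0.27, all lower in Scl-/- cells. Single libraries weighed on this value, which was -0.17 without WT replicate 3 and -1.10 without Scl-/- replicate 3. With the block, it was no longer called when pair 2 was left out (log2 fold change -0.47, Benjamini-Hochberg adjusted p = 0.122 by limma).

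The SOXF genes were compared with each other within libraries, where the scaling of each library largely cancels. Relative to Sox18, Sox17 was lower in Scl-/- than in WT cells by a log2 difference of -1.54, with -1.46, -1.53 and -1.63 in pairs 1 to 3. Relative to Sox18, Sox7 was lower by -1.81, with -1.13, -2.02 and -2.29 in the pairs. Both gave p = 0.10 in a two-sided exact permutation test over libraries, the smallest that 3 against 3 libraries allow, and 0.20 after Benjamini-Hochberg adjustment over 6 comparisons. Sox7 and Sox17 differed from each other by -0.27 (exact permutation p = 0.70), with pair differences of 0.33, -0.49 and -0.66 that pointed both ways.

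Per kilobase of annotated exon, Sox7 made up 75.2, 69.0 and 63.1% of the SOXF level in WT replicates 1 to 3 and 65.7, 40.3 and 30.8% in Scl-/- replicates 1 to 3. The share of Sox18 was 15.03, 22.6 and 24.96% in WT and 28.3, 54.5 and 60.4% in Scl-/- libraries, without overlap between groups. The summed SOXF level was 47.6, 24.6 and 58.5 CPM per kb in WT and 15.4, 5.91 and 20.02 CPM per kb in Scl-/- libraries. Sox18 was therefore the highest SOXF gene per kilobase in 2 of the 3 Scl-/- libraries and in none of the WT libraries. In bulk RNA, fewer SOXF-expressing cells and less SOXF RNA in each cell cannot be told apart.

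**Figure D2:**
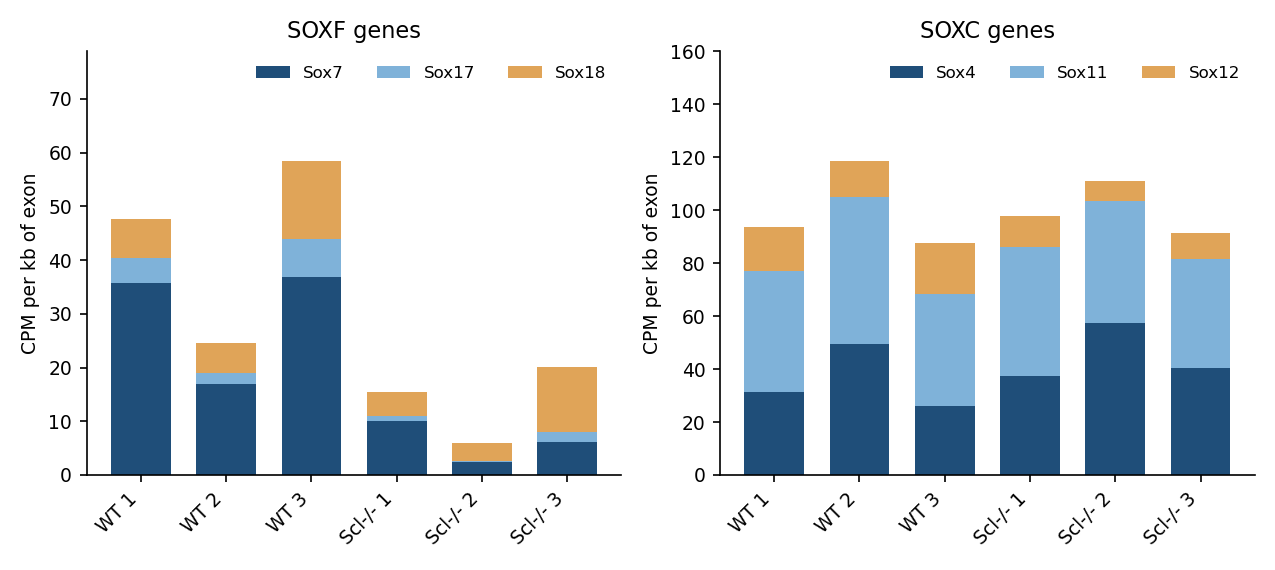
Stacked levels of the SOXF genes (left) and SOXC genes (right) in each library, in CPM per kb of exon annotated by GENCODE, with bars starting at 0. The SOXF stack is lower in each Scl-/- library than in any WT library and Sox18 makes up a greater part of it, while the SOXC stacks run from 87.5 to 119 CPM per kb with overlapping groups.

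Sox4 (Ensembl ENSMUSG00000076431), on chromosome 13 from 29040788 to 29045582, encodes a SOXC factor of progenitor cells. In replicate order, WT libraries held 149, 237 and 126 CPM of its RNA and Scl-/- libraries 179, 276 and 193 CPM. Groups overlapped, since WT replicate 2 exceeded Scl-/- replicates 1 and 3. This gave a log2 fold change of 0.37 (SE 0.26, Benjamini-Hochberg adjusted p = 0.548 by limma and 0.0184 in the blocked fit), below the fold-change threshold, with pair differences of 0.26, 0.22 and 0.62. Without the fold-change threshold and with the block, 6 of the 7 SOX genes passed, Sox4 among them, against 24.2% of all tested genes. With the block, its adjusted p was 0.0537 without pair 2 and 0.0903 without pair 3. The gene models Gm17419, on the opposite strand, and ENSMUSG00000078309, which lies inside Sox4 on the same strand, overlap Sox4 and have rows of their own, with 61.1 to 171 CPM and 15.3 to 34.2 CPM. How reads were divided between these rows is not given in the sources used here, so the level of Sox4 is uncertain.

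Sox12 (Ensembl ENSMUSG00000051817), on chromosome 2 from 152219347 to 152223782, encodes a further SOXC factor. Its level was 68.5, 57.2 and 79.5 CPM in the WT libraries, in replicate order, against 49.0, 32.2 and 40.4 CPM in the Scl-/- libraries. No Scl-/- library reached the lowest WT value. The mean difference was a log2 fold change of -0.76, or 1.69-fold lower (SE 0.18, Benjamini-Hochberg adjusted p = 0.0917 by limma and 0.00168 in the blocked fit). The pair differences were -0.48, -0.82 and -0.97.

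Sox11 (Ensembl ENSMUSG00000063632), on chromosome 12 from 28025562 to 28027574, is the SOXC gene with the smallest difference between groups. In replicate order, WT libraries held 92.6, 112 and 85.1 CPM of its RNA and Scl-/- libraries 98.0, 92.2 and 83.3 CPM. All 6 libraries lay within a narrow range and the groups overlapped. The log2 fold change was -0.075, with a 95% confidence interval of -0.37 to 0.22, or of -0.26 to 0.11 with the replicate block (limma, Benjamini-Hochberg adjusted p = 0.858 and 0.551). The sign turned to 0.035 without WT replicate 2.

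Within libraries, Sox11 was higher relative to Sox12 in Scl-/- than in WT cells by a log2 difference of 0.68, with 0.56, 0.55 and 0.94 in the pairs (two-sided exact permutation p = 0.10, adjusted 0.20). Sox4 was higher relative to Sox12 by 1.12, with 0.73, 1.04 and 1.59 (exact permutation p = 0.20, adjusted 0.24). For Sox4 against Sox11 the difference was 0.44, with 0.18, 0.49 and 0.65 (exact permutation p = 0.20, adjusted 0.24). All 3 SOXC comparisons thus had the same sign in every pair, and none passed 0.05, which this number of libraries does not allow. They are not independent, since Sox4 against Sox12 is the sum of the other comparisons and its sign follows from theirs. The share of Sox12 in the SOXC level per kilobase was 11.5 to 21.8% in WT and 6.94 to 12.04% in Scl-/- libraries, with a small overlap. These shares depend on the exon length annotated for Sox11 and on the uncertain level of Sox4.

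The 250 bases before the RefSeq start of the SOXC genes are shown because the log2 fold changes of this group ran from -0.76 to 0.37, and the table of promoters used here held 3 of the 7 members, Sox4, Sox11 and Sox12. All are from build GRCm38.p6 and written 5′ to 3′ on the minus strand on which the genes lie, with Sox4 at chr13:28953700-28953949, Sox11 at chr12:27342719-27342968 and Sox12 at chr2:152398047-152398296. Capitals mark matches on either strand to CAGNTG, the E-box form bound by SCL with its E-protein partners, to GATAA, the core of the site of their GATA partners, and to ACAAT, a core of SOX sites.
Sox4: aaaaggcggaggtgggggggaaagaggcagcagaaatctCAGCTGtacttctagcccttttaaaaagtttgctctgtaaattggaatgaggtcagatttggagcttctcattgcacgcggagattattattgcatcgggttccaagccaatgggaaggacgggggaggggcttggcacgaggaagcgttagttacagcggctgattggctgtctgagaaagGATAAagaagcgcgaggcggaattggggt
Sox11: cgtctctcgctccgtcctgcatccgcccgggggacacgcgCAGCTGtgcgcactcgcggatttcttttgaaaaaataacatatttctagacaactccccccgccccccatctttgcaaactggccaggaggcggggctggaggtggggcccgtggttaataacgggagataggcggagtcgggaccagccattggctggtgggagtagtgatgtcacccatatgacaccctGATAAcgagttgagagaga
Sox12: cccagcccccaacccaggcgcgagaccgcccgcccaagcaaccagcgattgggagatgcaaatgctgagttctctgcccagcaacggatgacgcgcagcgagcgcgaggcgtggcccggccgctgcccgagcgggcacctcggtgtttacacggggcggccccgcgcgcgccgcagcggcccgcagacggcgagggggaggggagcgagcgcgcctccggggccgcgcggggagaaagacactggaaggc
The Sox4 and Sox11 windows each held 1 CAGNTG, read as CAGCTG in both, which begins 211 and 210 bases before the start, and 1 GATAA, which begins 29 and 19 bases before it. The Sox12 window held neither, and ACAAT matched in none of the 3. Of the 32851 promoter windows of the same length in the table, 44.8% held CAGNTG, 22.6% GATAA and 27.7% ACAAT on either strand, so that such matches are common and are given as a description of the letters alone. The G and C content was 50.8% for Sox4, 58.0% for Sox11 and 74.4% for Sox12.

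Sox9 (Ensembl ENSMUSG00000000567), on chromosome 11 from 112643538 to 112649074, encodes the SOXE factor that directs cartilage formation. Its level was 10.8, 20.4 and 9.76 CPM in the WT libraries, in replicate order, against 51.3, 65.5 and 47.97 CPM in the Scl-/- libraries. Every Scl-/- library exceeded every WT library, and replicate 2 was the highest of both groups, where Sox7 and Sox17 had their lowest values. The log2 fold change was 2.03 (SE 0.27, Benjamini-Hochberg adjusted p = 0.0134 by limma and 5.7e-05 in the blocked fit), with pair differences of 2.20, 1.66 and 2.24. With condition alone, the call was lost without WT replicate 1 (log2 fold change 1.91, Benjamini-Hochberg adjusted p = 0.0813 by limma) and without Scl-/- replicate 2 (1.90, adjusted p = 0.0550). With the block it was kept without each pair in turn.

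**Figure D3:**
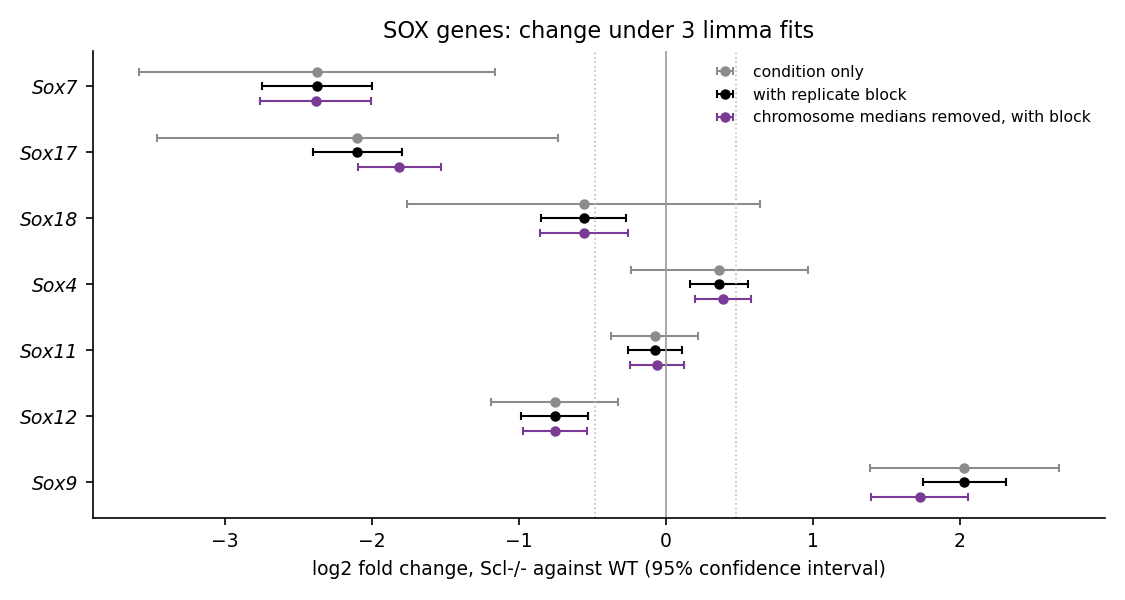
Log2 fold change of each SOX gene, Scl-/- against WT, with 95% confidence intervals from 3 limma fits (condition alone, with the replicate block, and with chromosome medians removed and the block). Dotted lines mark the threshold of 0.48. Intervals are narrower with the block, and removing chromosome medians moves Sox17 from -2.10 to -1.81 and Sox9 from 2.03 to 1.73.

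Neighbouring genes were examined because chromosomes 1 and 11 were shifted as a whole. Around Sox9, the 20 nearest tested genes, 10 on each side, had log2 fold changes from -0.24 to 1.30 with a median of 0.83, and 12 of them were called as higher with the replicate block. The nearest tested gene on the left was Map2k6, which encodes a kinase of the p38 pathway, at 2257 kb (log2 fold change 1.30, Benjamini-Hochberg adjusted p = 2.9e-04 by limma with the block), and that on the right was the noncoding gene 2610035D17Rik at 256 kb (1.26, adjusted p = 0.00390 with the block). The 8 tested genes that start within 1 Mb of Sox9, all on the right, ran from -0.24 to 1.26 with a median of 0.35. With the median deviation of these neighbours removed from each library, a setting added after seeing the data, the log2 fold change of Sox9 was 1.26 (SE 0.14, Benjamini-Hochberg adjusted p = 9.2e-04 by limma with the block and 0.0515 with condition alone). Before this step Sox9 lay above all 20 neighbours, and 0.165% of the other tested genes of chromosome 11 had a higher log2 fold change.

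Sox17 is the first tested gene of chromosome 1, so that its 10 nearest tested genes all lie on the side away from the chromosome end. They had log2 fold changes from -0.50 to 0.19 with a median of -0.27, and the nearest, Mrpl15, which encodes a mitochondrial ribosomal protein, had -0.24. With chromosome medians removed, the log2 fold change of Sox17 was -1.81 (Benjamini-Hochberg adjusted p = 1.6e-04 by limma with the block), and with neighbourhood medians removed it was -1.82 (6.7e-05 with the block). Around Sox7 the 20 nearest genes had a median of -0.040 and ran from -0.44 to 0.55. Its nearest neighbours on either side, Pinx1 at 23.8 kb and Msra at 172 kb, had log2 fold changes of 0.0099 and 0.038. The other 4 members had neighbourhood medians between -0.029 and 0.058. Next to Sox18, Samd10 at 70.6 kb had a log2 fold change of -0.60 and was called with the block (Benjamini-Hochberg adjusted p = 0.0473 by limma). Next to Sox12, Zcchc3 at 13.9 kb had -0.36 (0.0248) and was below the fold-change threshold. With neighbourhood medians removed and the block, 5 members were called, 4 as lower and 1 as higher, against 10.7% of all tested genes, 5.86% as lower and 4.85% as higher.

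**Figure D4:**
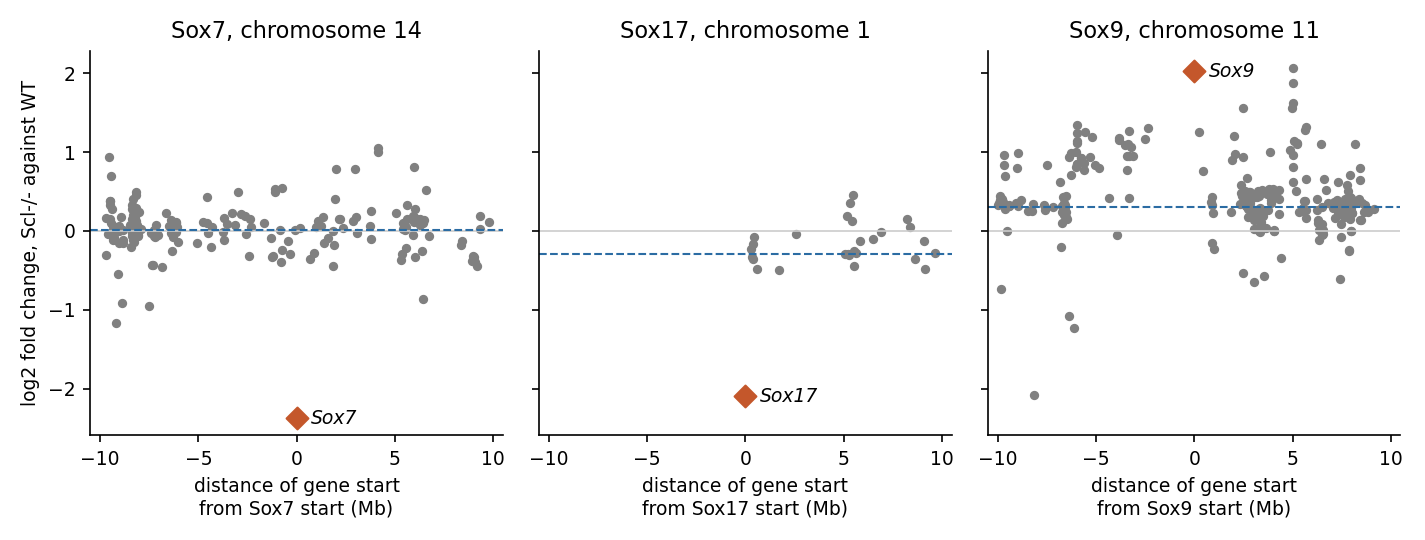
Log2 fold change of tested genes within 10 Mb of Sox7, Sox17 and Sox9 against the distance of their starts, with the SOX gene as a diamond and the chromosome median as a dashed line. Sox7 and Sox17 lie below all other genes shown around them, while 18 of the 20 genes nearest to Sox9 also lie above 0, with a median of 0.83.

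Levels of different genes were ordered per kilobase of annotated exon. In WT cells the order was Sox11 (47.9 ± 6.82 CPM per kb, SD, n = 3), Sox4 (35.6 ± 12.3), Sox7 (29.9 ± 11.2), Sox12 (16.4 ± 2.68), Sox18 (9.11 ± 4.82), Sox17 (4.57 ± 2.46) and Sox9 (3.30 ± 1.41). Each overlapped its neighbour in this order. In Scl-/- cells the order was Sox11 (45.3 ± 3.67 CPM per kb, SD, n = 3), Sox4 (45.1 ± 10.9), Sox9 (13.3 ± 2.25), Sox12 (9.72 ± 2.03), Sox18 (6.56 ± 4.83), Sox7 (6.22 ± 3.87) and Sox17 (1.00 ± 0.730). There, gaps beyond the range of the libraries lay between Sox4 and Sox9 and between Sox7 and Sox17. Sox9 thus stood last of the 7 in WT and at rank 3 in Scl-/- cells, and Sox7 stood at rank 3 in WT and at rank 6 in Scl-/- cells. The annotation gives Sox11 2013 bases of exon, and a longer transcript would lower its level per kilobase.

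The rest of the family was read from a list of 13 other SOX genes, of which 3 had rows in the table and were tested. Sox6, a SOXD gene whose product works with SOX9 in cartilage and also restrains embryonic globin genes in red cells, was weakly expressed, at 3.49, 3.03 and 2.70 CPM in the WT and 0.902, 0.870 and 0.907 CPM in the Scl-/- libraries. It was lower in every Scl-/- library, with a log2 fold change of -1.35 (SE 0.18, Benjamini-Hochberg adjusted p = 0.0128 by limma and 0.00120 in the blocked fit). The call was lost without WT replicate 1 and without Scl-/- replicate 2. Sox13, another SOXD gene, on chromosome 1, had 38.8 to 53.8 CPM in WT and 43.3 to 65.1 CPM in Scl-/- libraries (log2 fold change 0.16, Benjamini-Hochberg adjusted p = 0.753 by limma and 0.283 in the blocked fit). Its log2 fold change was 0.45 with chromosome medians removed (Benjamini-Hochberg adjusted p = 0.200 by limma and 0.0119 in the blocked fit) and 0.46 with neighbourhood medians removed (0.241 and 0.0221), in both cases below the fold-change threshold. Sox2, the SOXB1 gene of pluripotent and neural cells, had 2.72 to 5.31 CPM in WT and 1.99 to 6.89 CPM in Scl-/- libraries (log2 fold change -0.036, adjusted p = 0.987). The other 10, among them the SOXE genes Sox8 and Sox10 and the SOXD gene Sox5, were not analysed here.

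Among genes of the endothelial and blood settings in which SOXF factors are known, most of those called were lower in Scl-/- cells. Some endothelial genes were called as higher. Of 29 endothelial genes 26 were tested, with a median log2 fold change of -0.94 against 0.0090 over all tested genes. With condition alone 7 were called as lower (1.57% of all tested genes) and 1 as higher (0.793%). With the block 16 were called as lower (6.6% of all tested genes) and 3 as higher (6.04%). With chromosome medians also removed, 16 were called as lower (5.9%) and 2 as higher (4.76%). The greatest differences were those of Tie1, an endothelial receptor (log2 fold change -3.64), and Nos3, the endothelial nitric oxide synthase (-3.23). Etv2, the ETS factor at the top of the endothelial programme, was called as higher, with 114 to 138 CPM in WT and 199 to 240 CPM in Scl-/- libraries (log2 fold change 0.78, Benjamini-Hochberg adjusted p = 0.0175 by limma). The summed level of the list was 2230 to 2963 CPM in WT and 1882 to 2177 CPM in Scl-/- libraries. Of 18 haematopoietic genes 14 were tested, with a median of -2.37. As lower, 10 were called with condition alone (1.57% of all tested genes) and 13 with the block (6.6%). The median and both counts include Tal1, the targeted gene, whose fall follows from the genotype. Besides Tal1 the greatest difference was that of Myb, a regulator of blood progenitors (log2 fold change -3.86).

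Sox17 is also a gene of definitive endoderm, and a list of endoderm genes was read for that reason. With the block, most of its called genes were higher in Scl-/- cells. Several of these are not particular to endoderm. The study counts Gata4 and Gata6 as cardiac genes and Gsc and Mixl1 as genes of mesoderm specification. Of 23 endoderm genes 15 had rows and 14 were tested, with a median log2 fold change of 0.90. With the block 9 were called as higher and 1 as lower, against 6.04% and 6.6% of all tested genes. With condition alone 1 was called in each direction (0.793% as higher and 1.57% as lower over all tested genes). The higher ones included Lhx1 (log2 fold change 2.15), Mixl1 (1.04) and Cxcr4 (1.00), which are also genes of the primitive streak and early mesoderm. Lhx1 lies on chromosome 11 and the others on chromosome 1, and with chromosome medians removed they had 1.85, 1.33 and 1.29. Lhx1 overlapped between groups, with 28.7 to 216 CPM in WT and 83.4 to 721 CPM in Scl-/- libraries (Benjamini-Hochberg adjusted p = 0.299 by limma with condition alone). The lower one was Hhex, a homeobox gene of endoderm and of blood and endothelial precursors, with 53.3 to 82.4 CPM in WT and 17.8 to 25.3 CPM in Scl-/- libraries (log2 fold change -1.64, Benjamini-Hochberg adjusted p = 0.0102 by limma). The summed level was 1239 to 1868 CPM in WT and 1804 to 2854 CPM in Scl-/- libraries. Foxa1, Foxa2, Hnf4a, Afp and Ttr, which define endoderm more narrowly, were not analysed here, so that the part of endodermal cells in the level of Sox17 was not tested.

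Of 21 cartilage genes, chosen as the setting of Sox9, 10 were tested, with a median log2 fold change of -0.027. With the block 4 were called as higher and 3 as lower, against 6.04% and 6.6% of all tested genes. With condition alone 1 was called as higher and 2 as lower, against 0.793% and 1.57%. Col9a3, which encodes a chain of cartilage collagen IX, had 3.96 to 4.44 CPM in WT and 7.78 to 10.4 CPM in Scl-/- libraries and was called in both models (log2 fold change 1.01, Benjamini-Hochberg adjusted p = 0.0271 by limma). Col9a1 (0.93), Col11a1 (0.75) and Col27a1 (0.53), also collagen genes, were called with the block alone. Col2a1, which encodes the main cartilage collagen, had 11.4 to 13.5 CPM in WT and 6.24 to 14.5 CPM in Scl-/- libraries and was not called (log2 fold change -0.45, Benjamini-Hochberg adjusted p = 0.499 by limma and 0.160 in the blocked fit). Hapln1, which encodes a matrix link protein (-2.40), and Sox6 were called as lower in both models, and Matn1, which encodes matrilin (-1.55), with the block alone. Of the 10 tested genes of the paraxial mesoderm list, from which cartilage of the trunk is derived, 7 were called as higher by limma with the block and 0 with condition alone, where 3 had an unadjusted p under 0.05. Their median log2 fold change was 0.89, and the greatest was that of Dll3, a Notch ligand (1.92). Tbx6 had 0.90 and Pdgfra 0.88. Over all tested genes, 6.04% were called as higher with the block.

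**Figure D5:**
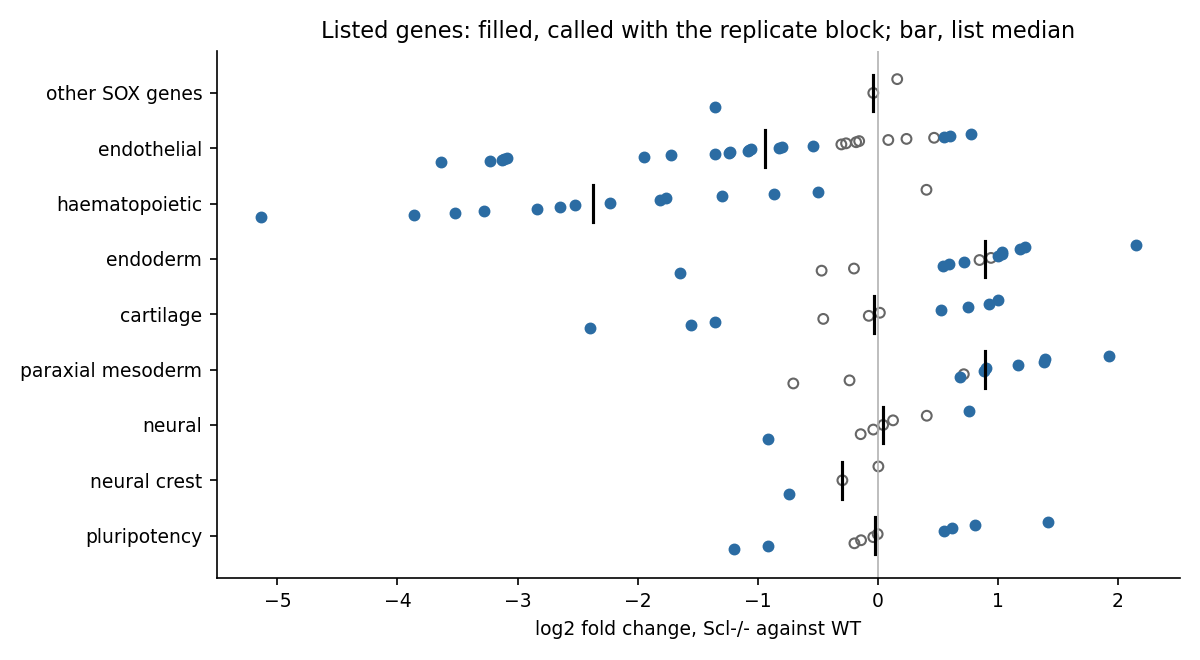
Log2 fold change, Scl-/- against WT, of the tested genes of each list, 1 point per gene, filled where the gene was called by limma with the replicate block, with a bar at the median of the list. Most haematopoietic and endothelial genes lie to the left, most paraxial and endoderm genes to the right, and cartilage genes on both sides of 0.

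Libraries differed within groups in a way that ran through the SOX genes. WT replicate 2 had the lowest WT values of Sox7, Sox17, Sox18 and Sox12 and the highest of Sox4, Sox11 and Sox9. Its summed haematopoietic level was also the lowest of the WT libraries (655 CPM, against 1018 and 1081) and its summed paraxial level the highest (265 CPM, against 78.9 and 105). Among the Scl-/- libraries, replicate 2 again had the lowest Sox7, Sox17, Sox18 and Sox12 and the highest Sox4 and Sox9, the lowest haematopoietic sum (186 CPM, against 283 and 306) and the highest paraxial sum (493 CPM, against 135 and 317). Other lists also set replicate 2 apart in both groups. Its endoderm sum (1868 CPM in WT, 2854 CPM in Scl-/-), pluripotency sum (540 and 929 CPM) and neural sum were the highest of each group. Its endothelial sum (2230 and 1882 CPM) and neural crest sum were the lowest. The cartilage sum of replicate 2 was the lowest in WT but not in Scl-/- libraries. The part of cell composition in the SOX values was not tested.

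For each SOX gene, the 3 tested genes with the most similar profile over the 6 libraries were found by the root mean square (RMS) difference between log2 values centred on their means, over 13953 candidates whose average reached 1 CPM. Nearest to Sox7 were the zinc transporter gene Slc30a2 (RMS 0.17), Hapln1 (0.26) and the homeobox gene Hoxb4 (0.27). Nearest to Sox17 were Tek, which encodes the endothelial angiopoietin receptor (0.20), Nbeal2 (0.32), needed for platelet granules, and Laptm5 (0.35), expressed in blood cells. For Tek, WT libraries in replicate order held 37.3, 17.8 and 41.3 CPM of its RNA and Scl-/- libraries 9.65, 3.07 and 13.4 CPM. Its lowest library in each group was the same as for Sox17, a likeness by which Tek was chosen. Nearest to Sox18 were Des, which encodes the muscle filament desmin (0.26), Ccdc92 (0.27) and the iron exporter gene Slc40a1 (0.28).

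Nearest to Sox4 was the overlapping model ENSMUSG00000078309 (RMS 0.019), then Nedd9 (0.044) and Sash1 (0.057), which encode a scaffold and an adaptor protein. Nearest to Sox12 were Shc2, an adaptor gene (0.040), Inf2, a formin gene (0.071), and Tspan9, a tetraspanin gene (0.078). Nearest to Sox11 were the peptide transporter gene Slc15a2 (0.033), Gm10069 (0.038) and Gm17460 (0.043). Nearest to Sox9 were the Y-linked helicase gene Ddx3y (0.20), Gm23134 (0.23) and the imprinted gene Nnat (0.25), all on other chromosomes. Among the SOX genes themselves, the RMS difference was smallest for Sox4 and Sox11 (0.34) and greatest for Sox7 and Sox9 (2.41). Sox7 was nearer to Sox17 (0.49) than to Sox18 (1.15). This measure is not scaled to the variation of each gene. The RMS of each gene about its own mean was 0.38 for Sox4 and 0.14 for Sox11, against 1.37 for Sox7 and 1.30 for Sox17. The value for Sox4 and Sox11 was thus close to the variation of Sox4 itself.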

How the data were processed

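RNA-seq was available from 3 WT and 3 Scl-/- libraries, grouped by their labels. The authors aligned reads to mm9 with TopHat2 2.0.8b, removed duplicate pairs, filtered by mapping quality with SAMtools 0.1.19, normalised with edgeR's TMM method and deposited CPM values. The counting tool and annotation are not given in the sources used here. Duplicate removal can lower highly expressed genes. All values were whole multiples of 1 step per library (tolerance 0.05), which gave the reads. Count models were not run.

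Testing covered the 13991 genes that reached 0.5 CPM in 3 or more libraries, which removed 14, and used limma 3.58.1 (R 4.3.3) on log2(CPM + 0.5), with an intensity trend and condition as the only term. The sources do not say that a replicate number marks a shared differentiation, and the fit with the replicate block rests on correlations of deviations of 0.59, 0.76 and 0.75 for same-numbered libraries, against -0.62 to -0.10 for others. With nothing else known of the cultures, p-values measure the spread between these samples. The floor of 3 reads covers counting error alone. Positions and exon lengths come from GENCODE for mm9, promoters from RefSeq (GRCm38.p6). Other steps ran in Python 3.11.15 with NumPy 2.4.6, pandas 2.3.3 and Matplotlib 3.10.9.

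The SOX members and gene lists were chosen with earlier results of these data known. Named are the members, other tested SOX genes, in each list the defining markers and the 2 tested genes with the greatest absolute log2 fold change, the nearest tested genes by position and the 3 by profile. Other list genes printed, such as Etv2 and the collagen genes, were chosen after their values were seen. The cartilage, neural, neural crest and pluripotency lists also hold SOX genes. Alternatives were a pseudocount of 0.1 or of 1, testing every gene, testing genes averaging 2 CPM or more, median-ratio rescaling, no intensity trend, no fold-change threshold, the block, chromosome medians removed and each library left out. Neighbourhood medians removed, and the block with each pair left out, were added after seeing the data.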

Additional observations from a re-analysis of the deposited data

How the results depend on the processing

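With condition alone, limma called 330 genes, 1 of 7 SOX genes, 1 of 3 other SOX genes and 23 genes of the 8 remaining lists. In the same order the counts were 1768, 5, 1 and 65 with the replicate block, 3385, 6, 1 and 69 with the block when no minimum fold was asked, 1492, 5, 1 and 63 with chromosome medians removed and the block, and 1498, 5, 1 and 63 with neighbourhood medians removed and the block. With neighbourhood medians removed but no block, 0 SOX genes were called by limma and 4 had an unadjusted p under 0.05. The share of all tested genes at that unadjusted cut-off was again not counted. With genes averaging 2 CPM or more, 0 of the other SOX genes were called, because Sox6 was no longer tested. Leaving out 1 library gave 44 to 384 genes, 0 to 2 SOX genes, 0 to 1 other SOX genes and 2 to 27 list genes, with the lowest counts without WT replicate 1. No SOX gene was called without WT replicate 1 or Scl-/- replicate 2, and Sox7 was called besides Sox9 without Scl-/- replicate 1 or WT replicate 2. The block with a pair left out gave 2062, 1122 and 1210 genes without pairs 1, 2 and 3, then 5, 4 and 5 SOX genes and 71, 53 and 53 list genes. Sox11 ran from -0.16 to 0.035 on the log2 scale without a library, turning positive without WT replicate 2, and was 0.025 with the block and without pair 2. Sox7 minus Sox17 ran from -0.66 to 0.10, turning positive without Scl-/- replicate 3. The other 6 members kept their direction under all 22 alternatives. The within-family differences, tested by exact sign flips of the 3 pairs as the replicate block, gave p = 0.50 for Sox7 minus Sox17 and 0.25, the smallest possible, for the other 5. With an arm of 2 libraries the spread is assumed equal across groups. The causes of these shifts were not tested. At this depth the lowest Sox17 library held 40 reads, which limits its precision.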

Other observations

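Neural, neural crest and pluripotency genes were also read, as markers of other cells in which SOX genes are expressed. Of 7 tested neural genes, Nes, which encodes the progenitor filament nestin, was called as higher with the replicate block (log2 fold change 0.76), and Tubb3, which encodes a neuronal tubulin, as lower (-0.91). Pax6, a regulator of neural progenitors, had 12.7 to 15.4 CPM in WT and 13.9 to 15.5 CPM in Scl-/- libraries. Of 3 tested neural crest genes, 1 was called with the block, Ednrb, which encodes an endothelin receptor, as lower (-0.74), while Msx1 had -0.29. Sox10 and Foxd3, which define neural crest, were not analysed here. Of 10 tested pluripotency genes, 4 were called as higher and 2 as lower with the block, led by Tdgf1, which encodes a Nodal co-receptor (1.42), and Dppa4, a gene of pluripotent cells (-1.19). Of all tested genes, 6.04% were called as higher and 6.6% as lower with the block, and 2.36% in either direction with condition alone. Condition alone gave 0 calls by limma in these 3 lists, with 1 neural, 0 neural crest and 4 pluripotency genes at an unadjusted p under 0.05. Their summed levels were 128 to 196 CPM in WT and 187 to 217 CPM in Scl-/- libraries for neural genes, 156 to 190.4 and 113 to 157 CPM for neural crest genes and 231 to 540.1 and 326 to 929 CPM for pluripotency genes. Their part in the SOX levels was not tested.

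Ddx3y, a Y-linked helicase gene and the nearest to Sox9 by profile, had a mean of 12.9 CPM in WT and 53.0 CPM in Scl-/- cells, close to those of Sox9 (13.6 and 54.9 CPM).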
